A study of Danio rerio with 6 samples.

Results

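Ribosome biogenesis and RNA polymerase I genes were followed in zebrafish larvae exposed to a leachate of tire wear particles, as a set of 57 genes out of 24826 in the deposited gene table. A gene entered the set by its symbol alone: the nop, nol, utp and rrp families followed by a digit, the polr1 genes, and imp3, imp4, bop1, fbl, dkc1, gar1, nhp2, ncl, npm1a, npm1b, pes, ebna1bp2, gnl2, gnl3, gnl3l, rrs1, mybbp1a, nip7, tsr1, tsr2 and tsr3. The symbol pattern uses no measured value, though it was written with earlier results of these data known. The pattern also took nol4la and nol4lb, which share only a name stem with the others and are described apart. The set was sorted into 5 RNA polymerase I subunits, 18 proteins of the small-subunit processome, 7 core proteins of small nucleolar ribonucleoproteins, 15 large-subunit assembly factors, 4 late small-subunit factors, 6 other nucleolar proteins and the 2 nol4l genes.

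The larvae were of wild-type genotype and were exposed from 4 to 168 h after fertilization, at 200 eggs per dish, with a move to clean dishes at 72 h. The exposed group, labelled TWP 700, received a leachate of tire wear particles; the labels give 700 as a treadwear grade in one place and among concentrations in another, so it is used here only as a name. The control group received medium with 0.001% bovine serum albumin as a surfactant. Albumin was not recorded for the exposed samples. Each group had 3 biological replicates, each a pool of 80 whole larvae, named here leachate 1 to 3 and control 1 to 3; animals within a pool cannot be told apart.

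Ribosome production begins in the nucleolus, where RNA polymerase I transcribes the ribosomal RNA precursor. The small-subunit processome and the small nucleolar ribonucleoproteins fold, modify and cut this precursor, and separate sets of assembly factors and GTPases then build the large and small subunits and bring them to the cytoplasm. The genes of this pathway are most active in growing and dividing cells, and in zebrafish larvae loss of many of them impairs the growth of the eye, brain, liver, pancreas and gut.

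Total counts were 40048977, 42773836 and 37460304 in leachate 1 to 3 and 48431952, 37030725 and 46778228 in control 1 to 3. The 57 genes held 0.172% to 0.197% of counts in leachate pools and 0.188% to 0.213% in control pools, and the lowest count of any of them in a library was 71. On the first principal component of all tested genes (49.3% of variance) the groups were apart. On the second (20.4%) leachate 1 (17.9) and control 2 (43.0) lay on the positive side and the other 4 pools on the negative side. The longest 10% of tested genes had a median log2 deviation from their mean over the pools of 0.103 in leachate 1 and 0.198 in control 2. In the other 4 pools it ran from -0.120 to -0.034. The part of gene length in the second component was not tested. Marker genes of muscle, liver, exocrine pancreas, neurons, lens, gut, epidermis, blood and germ cells that matched the table had counts in all 6 pools. This holds for every gene the table lists. Several of these lists moved with the groups: 4 of 5 lens markers fell (1 without leachate 3), with summed levels of 1375 to 1960 CPM in leachate and 2491 to 3345 CPM in control, and 2 of 4 epidermis markers fell (0 without leachate 2 or leachate 3, and 1 without control 1 or control 3), with 11982 to 17680 CPM in leachate and 20983 to 24545 CPM in control. Higher calls were made for 3 of 5 neuron markers (0 or 1 with any 1 pool left out), at 357 to 430 CPM in leachate and 302 to 359 CPM in control, for 2 of 4 gut markers (1 without leachate 2), at 1219 to 1462 CPM in leachate and 581 to 1264 CPM in control, and for both matched erythroid markers (1 without leachate 1, control 1 or control 3), at 34.5 to 44.5 CPM in leachate and 20.2 to 20.7 CPM in control. Beside these marker calls, 7.87% of all tested genes were called higher and 7.29% lower. The part of these lists in the results on the 57 genes and on related lists was not tested. In whole larvae, fewer cells of a type and less RNA per cell cannot be told apart.

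Among the 57 genes, 3 rose and 9 fell in leachate larvae at an adjusted p under 0.05 in edgeR's quasi-likelihood test with Benjamini-Hochberg adjustment over all 23761 tested genes. The 12 called genes were 21.1% of the set, beside 15.2% called over all tested genes; higher calls made up 7.87% and lower calls 7.29% of those. Among the 17694 genes at least as abundant as the least abundant of the 57, 18.1% were called, 9.33% higher and 8.81% lower. The genes that rose were dkc1, nop16 and rrp9, and those that fell were polr1a, nop14, nop9, nol10, nop53, gnl2, tsr2, rrp12 and gnl3l. Log2 fold changes ran from -0.69 to 0.60, and 0 of the 57 passed a 2-fold change, against 1126 of the 23761 tested genes.

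The set did not move one way. Of its members 26 were higher and 31 lower in leachate, with a median log2 fold change of -0.06, beside -0.0026 over all tested genes. The median absolute log2 fold change was 0.27 in the set and 0.25 over all tested genes. Values of the 3 leachate pools and the 3 control pools did not overlap for 30 of the 57 (52.6%), with 11 above and 19 below every control, beside 35.1% of all tested genes (17.9% above and 17.1% below) and 39.1% of those at least as abundant. Summed over the 57 genes, counts scaled to library size with trimmed-mean factors (CPM) were 1781, 1687 and 1768 in leachate 1 to 3 and 2137, 1922 and 2128 in control 1 to 3, so the leachate sums lay below every control sum. Abundant genes weigh most in these sums, and the most abundant, nop53, had a mean of 235 CPM in leachate and 381 CPM in control. As a share of total counts, leachate 1 (0.197%) lay above control 2 (0.191%) and control 3 (0.188%). The scaling bears on the direction. With library totals in place of the trimmed-mean factors, 8 members rose and 2 fell and the median was 0.08, when the median of all tested genes was itself 0.131.

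**Figure D1:**
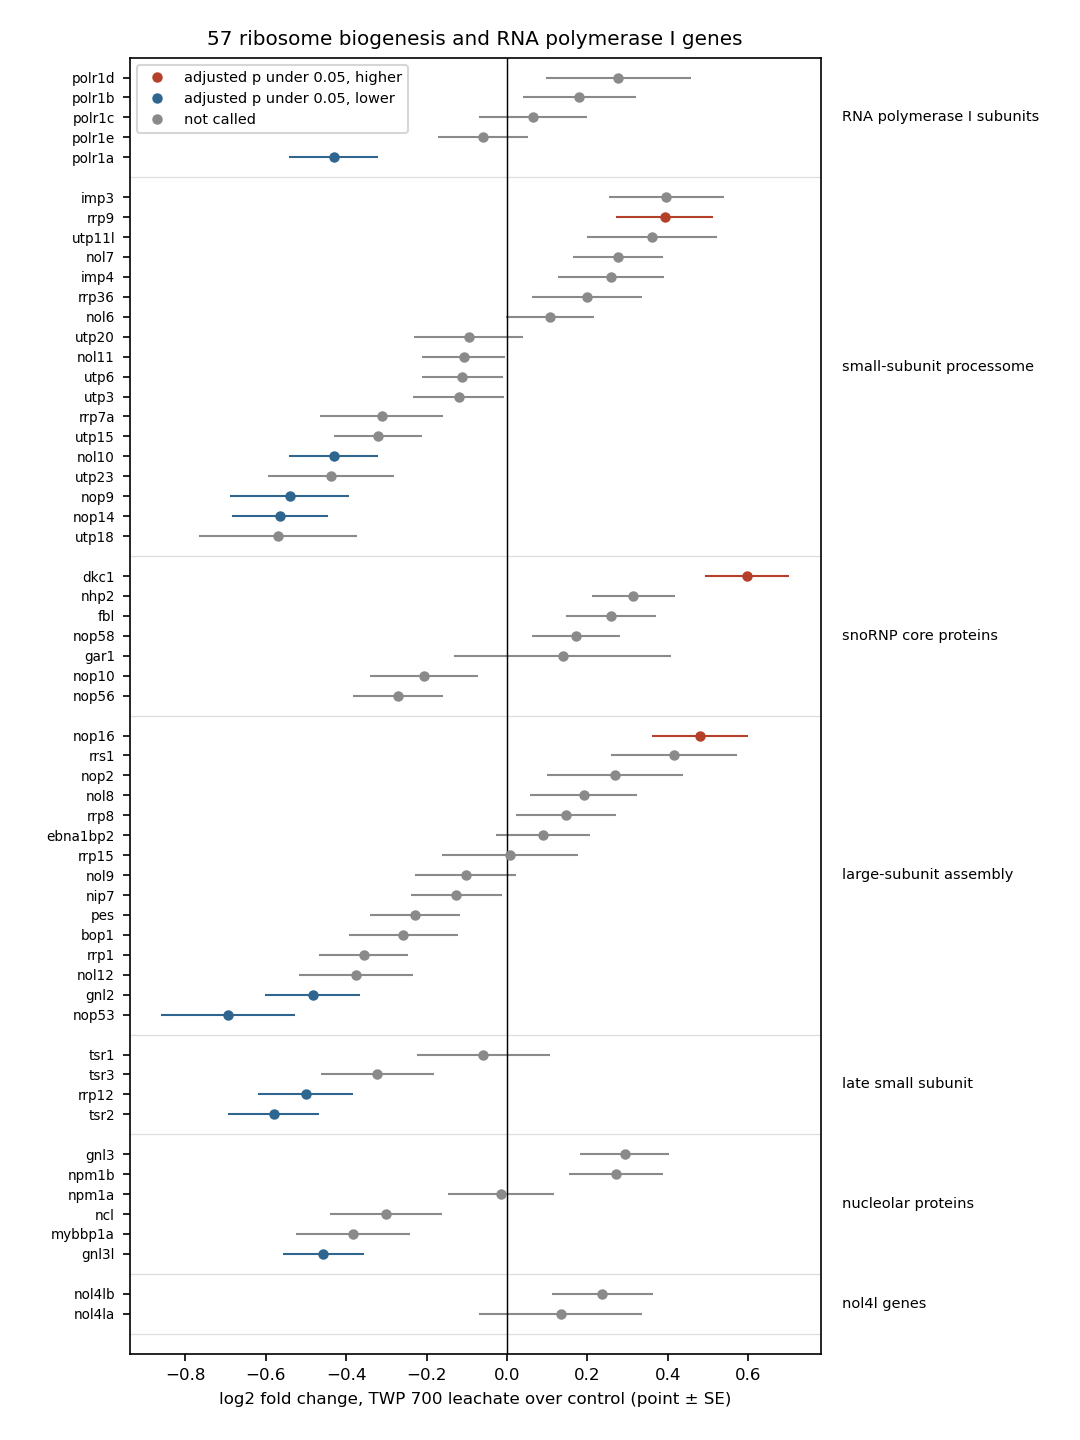
Log2 fold change (leachate over control, point with standard error) of each of the 57 genes, sorted by role and then by size, with genes called higher in red, called lower in blue and the rest in grey. Values run from -0.69 for nop53 to 0.60 for dkc1, and the 7 role groups hold genes on both sides of 0 except the nol4l genes, both higher, and the late small-subunit factors, all 4 lower.

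The call counts of the set moved when single pools were left out. They were 2 higher and 8 lower without leachate 1, 1 and 1 without leachate 2, 1 and 2 without leachate 3, 1 and 1 without control 1, 2 and 14 without control 2, and 3 and 9 without control 3. Without control 2 and leachate 1 together they were 3 higher and 17 lower. The share called over all tested genes moved too: 11.1%, 8.52% and 8.63% without leachate 1, 2 and 3, beside 15.2% with all 6 pools. It was 7.91%, 17.1% and 12.1% without control 1, 2 and 3, and 22.1% without control 2 and leachate 1 together. Only dkc1 and tsr2 kept their calls under all 18 alternatives tried.

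RNA polymerase I is the enzyme that makes the ribosomal RNA precursor. Its largest, catalytic subunit, polr1a, was the only one of the 5 subunits called (20%, beside 15.2% of all tested genes and 18.1% of those at least as abundant). polr1a had 52.977, 48.518 and 52.998 CPM in leachate 1 to 3, against 68.2, 75.7 and 64.3 CPM in control 1 to 3. All leachate pools lay below all controls, and polr1a fell 1.35-fold (log2 fold change -0.43 ± 0.11 SE, adjusted p = 0.0238, edgeR). The call did not survive leaving out leachate 2 (adjusted p = 0.124), leachate 3 (0.0787) or control 1 (0.0783), and with library totals as the scaling (0.175).

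The second catalytic subunit, polr1b, had 20.1, 17.2 and 18.8 CPM in leachate pools and 14.9, 20.0 and 14.7 CPM in controls. Only control 2 lay within the leachate range, and polr1b was not called (log2 0.18, 95% interval -0.13 to 0.49, adjusted p = 0.439). The subunits that RNA polymerase I shares with RNA polymerase III, polr1c (log2 0.06, interval -0.23 to 0.36) and polr1d (0.28, -0.12 to 0.67), were not called either, nor was the accessory subunit polr1e (-0.06, -0.30 to 0.19). The ratio of polr1b to polr1a, a comparison chosen after its values were seen and so not tested, was 0.379, 0.355 and 0.355 in leachate pools and 0.219, 0.263 and 0.229 in controls, with no overlap. On the deposited TPM values, which take gene length into account, polr1e was the most abundant subunit in both groups (18.5 ± 2.05 in leachate and 17.0 ± 0.758 in control, SD, n = 3 each) and polr1b the least (6.97 ± 1.25 and 5.46 ± 1.24).

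Beside the enzyme, the 6 tested factors that start and stop its transcription showed no call, 0 of the 6 had an unadjusted p under 0.05, and DESeq2 and limma-voom also called 0. Their log2 fold changes ran from -0.10 to 0.14. The most abundant of them, ubtf, which holds ribosomal RNA genes in an open state, had 60.8, 54.7 and 60.5 CPM in leachate and 58.2, 53.9 and 60.8 CPM in control (log2 0.02, 95% interval -0.21 to 0.26). This value was -0.00038 without leachate 1, -0.022 without control 2 and -0.044 without both. The groups overlapped throughout.

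The small-subunit processome, the large particle that assembles on the precursor as it is made, held 1 gene that rose and 3 that fell among 18. The median log2 fold change was -0.11, and 22.2% were called, beside 15.2% of all tested genes and 18.1% of those at least as abundant. The summed level of the processome was 307, 294 and 315 CPM in leachate pools and 336, 322 and 336 CPM in controls. Without control 2 the count was 0 higher and 6 lower, and without control 1 or leachate 2 it was 0 in both directions.

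The gene that rose, rrp9, encodes a protein of the U3 small nucleolar ribonucleoprotein, which pairs with the precursor. It had 19.5, 18.0 and 21.0 CPM in leachate, against 16.3, 13.6 and 14.6 CPM in control. The groups did not overlap, and rrp9 rose 1.31-fold (log2 0.39 ± 0.12 SE, adjusted p = 0.0494, edgeR). This is the called member nearest the threshold, and its call was lost in 15 of 18 alternatives: adjusted p was 0.0876, 0.0733 and 0.172 without leachate 1, 2 and 3, 0.0740, 0.0910 and 0.113 without control 1, 2 and 3, and 0.0504 with DESeq2.

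Of the 3 that fell, nop14 helps bind early factors to the small-subunit precursor. It had 24.0, 21.5 and 19.6 CPM in leachate pools and 34.9, 28.9 and 32.5 CPM in controls, a 1.48-fold lower level (log2 -0.56 ± 0.12 SE, adjusted p = 0.00948, edgeR). For nop9, an RNA-binding partner of nop14 in yeast, the values were 6.33, 5.69 and 4.99 CPM in leachate and 8.97, 8.11 and 7.66 CPM in control (log2 -0.54 ± 0.15, adjusted p = 0.0317). The processome protein nol10 had 19.9, 19.6 and 23.4 CPM in leachate and 28.1, 29.3 and 27.4 CPM in control (log2 -0.43 ± 0.11, adjusted p = 0.0241). In all 3 genes each leachate pool lay below each control. The nop14 call was lost without leachate 2 (0.0512), leachate 3 (0.0550) or control 1 (0.0569), and the nop9 call without leachate 2 (0.103), leachate 3 (0.121) or control 1 (0.128). That of nol10 was lost without leachate 1 (0.0652), leachate 2 (0.114) or control 1 (0.0829). With library totals none of the 3 passed (0.0680, 0.147 and 0.150).

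The most abundant processome member, utp6, had 33.0, 31.7 and 33.5 CPM in leachate and 37.1, 33.2 and 35.7 CPM in control, and was not called (log2 -0.11, 95% interval -0.33 to 0.11). Among the other 13 uncalled members log2 fold changes ran from -0.57 (utp18) to 0.40 (imp3), the U3-associated protein imp3 being higher in every leachate pool (10.5, 11.9 and 12.6 CPM) than in any control (10.3, 7.95 and 8.36 CPM). With called and uncalled members together, groups did not overlap in 10 of the 18 (55.6%), beside 35.1% of all tested genes and 39.1% of those at least as abundant. Among the 14 uncalled members this held for 6. Of the 6, utp18, utp15 and nol11 were lower and nol7, utp11l and imp3 higher in leachate. Without control 2, utp15 (0.0469), utp18 (0.0254) and utp23 (0.0320) passed the threshold as lower. In a RefSeq gene table of another assembly, and with strand ignored, the locus of utp20 overlaps slc5a8, which fell (log2 -1.57). The utp20 value (log2 -0.09) is uncertain because the labels do not say how shared reads were counted.

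Small nucleolar ribonucleoproteins guide chemical modification of ribosomal RNA, and this was the group with the highest median among those of the pathway (log2 0.17). Of its 7 members 1 was called (14.3%, beside 15.2% of all tested genes). dkc1 encodes the pseudouridine synthase of the box H/ACA particles and is also part of telomerase. It had 33.4, 29.4 and 32.0 CPM in leachate 1 to 3, against 20.0, 21.8 and 21.0 CPM in control 1 to 3. The lowest leachate pool was well above the highest control, and dkc1 rose 1.51-fold (log2 0.60 ± 0.11 SE, 95% interval 0.37 to 0.83, adjusted p = 0.00373, edgeR). Its call held under all 18 alternatives. The dkc1 locus overlaps 6 other annotated genes that were not among those tested.

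The other box H/ACA proteins bind dkc1 on the same guide RNAs and did not all share its change. nhp2 had 23.6, 23.7 and 25.1 CPM in leachate and 19.1, 20.0 and 19.2 CPM in control, with no overlap, but was not called (log2 0.31, adjusted p = 0.0608). nop10 had 11.6, 14.5 and 15.2 CPM in leachate and 15.0, 15.4 and 17.2 CPM in control (log2 -0.21, adjusted p = 0.344). The lowest-count member of the set, gar1, had 3.87, 2.68 and 1.87 CPM in leachate and 2.097, 2.89 and 2.72 CPM in control, and its interval (log2 -0.45 to 0.73) was the widest of the group. The ratio of dkc1 to nop10, chosen after values were seen and not tested, was 2.89, 2.03 and 2.102 in leachate pools and 1.34, 1.42 and 1.22 in controls.

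Box C/D particles carry the methyltransferase fbl on a scaffold of nop56 and nop58. The most abundant of these, nop56, had 117, 113 and 124 CPM in leachate and 147, 138 and 143 CPM in control, lower in every leachate pool but not called (log2 -0.27, 95% interval -0.51 to -0.02, adjusted p = 0.130). Its partner nop58 had 50.3, 42.9 and 45.3 CPM in leachate and 40.3, 43.9 and 38.8 CPM in control (log2 0.17, adjusted p = 0.332). The ratio of nop58 to nop56 was 0.429, 0.378 and 0.366 in leachate and 0.274, 0.319 and 0.272 in control, without overlap; this comparison too was chosen after its values were seen. For fbl the values were 32.8, 26.3 and 29.5 CPM in leachate and 24.0, 24.9 and 25.2 CPM in control (log2 0.26, adjusted p = 0.149).

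**Figure D2:**
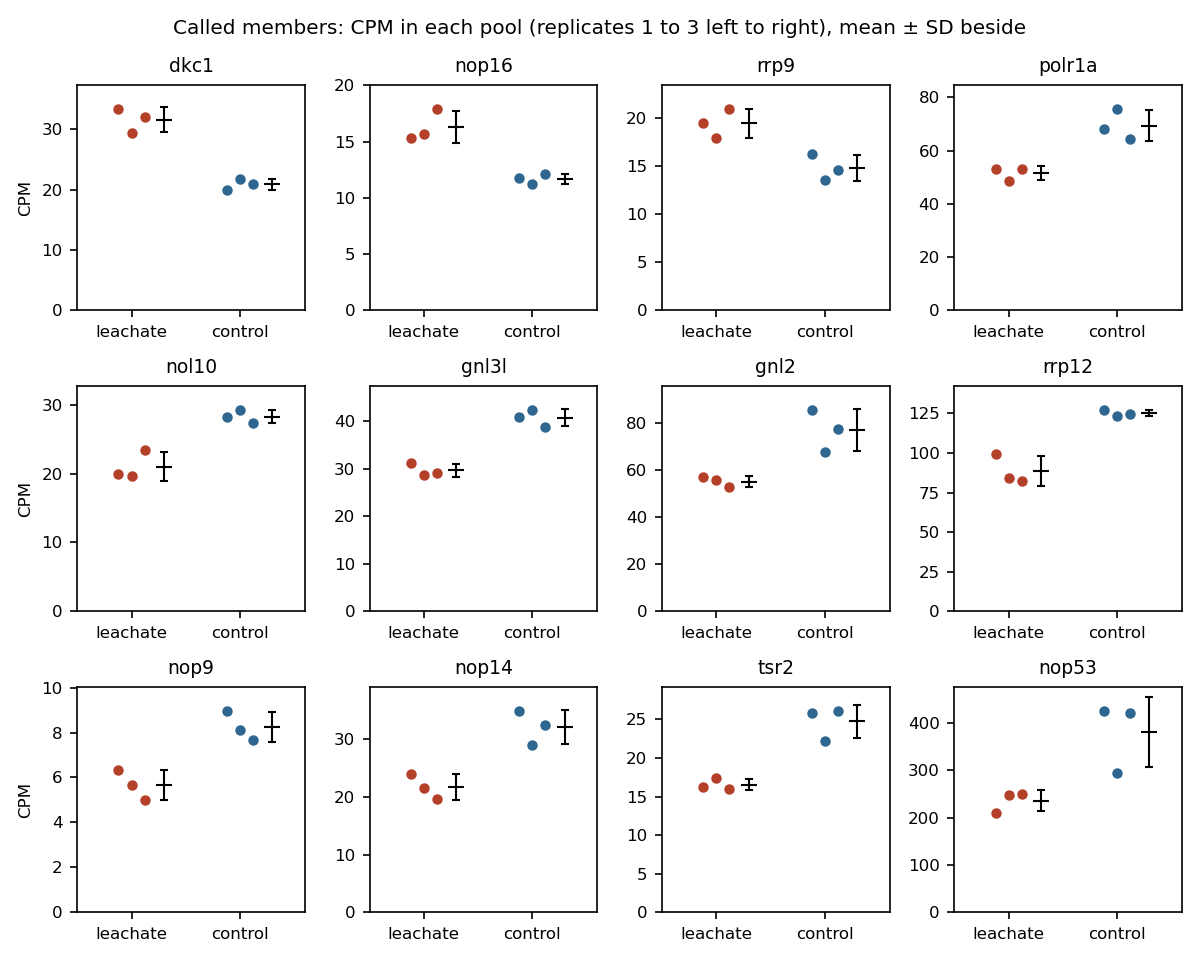
CPM of the 12 called genes in each pool (points, replicates 1 to 3 from left to right, leachate in red and control in blue), with the group mean and SD beside them; each axis starts at 0. In every panel the 3 leachate pools lie on one side of the 3 controls: above in dkc1, nop16 and rrp9 and below in the other 9.

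Large-subunit assembly was represented by 15 factors, of which 1 rose and 2 fell (median log2 fold change -0.10). Of these factors 20% were called, beside 15.2% of all tested genes and 18.1% of those at least as abundant. Their summed level was 477, 497 and 509 CPM in leachate pools and 720, 568 and 704 CPM in controls. nop53, an assembly factor that brings the RNA exosome to the particle in yeast, makes up much of that sum. It had 210, 247 and 250 CPM in leachate 1 to 3, against 426, 295 and 421 CPM in control 1 to 3. Control 2 was the lowest control, yet above every leachate pool, and nop53 fell 1.62-fold (log2 -0.69 ± 0.17 SE, adjusted p = 0.0176, edgeR), the largest fall of the set. The call was lost without leachate 2 (adjusted p = 0.0583), leachate 3 (0.0606) or control 1 (0.0893). Exocrine pancreas markers were also lowest among the controls in control 2. Summed over the 10 of 11 that matched the table they came to 15492, 18696 and 18514 CPM in leachate and 30180, 13161 and 36380 CPM in control. Of the 10, 3 were called lower (30%, beside 7.29% of all tested genes). Lower calls among these markers numbered 9 without control 2, 1 without control 3 and 0 without control 1 or any 1 leachate pool. Their part in the nop53 result was not tested.

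gnl2, a nucleolar GTPase needed for release of the large-subunit precursor, had 56.9, 55.7 and 52.6 CPM in leachate and 85.6, 67.7 and 77.6 CPM in control. It fell 1.40-fold (log2 -0.48 ± 0.12 SE, adjusted p = 0.0188, edgeR), and the groups did not overlap. The call was lost without leachate 2 (0.0776), leachate 3 (0.0932) or control 1 (0.0982) and with library totals (0.112). nop16, a nucleolar protein of early large-subunit particles, went the other way, with 15.3, 15.7 and 17.9 CPM in leachate against 11.8, 11.2 and 12.1 CPM in control. It rose 1.39-fold (log2 0.48 ± 0.12 SE, adjusted p = 0.0202), and was not called without leachate 2 (0.0516), leachate 3 (0.0941) or control 1 (0.0742).

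Among the 12 uncalled large-subunit factors, log2 fold changes ran from -0.38 (nol12) to 0.42 (rrs1). rrp1 lay just outside the threshold, with 19.4, 17.5 and 20.4 CPM in leachate, 25.7, 23.1 and 24.4 CPM in control and an adjusted p = 0.0510 (log2 -0.36), and passed without control 2 (0.0345). rrs1, which helps load the ribosomal 5S particle, had 18.0, 14.9 and 15.2 CPM in leachate and 11.4, 9.99 and 14.7 CPM in control (log2 0.42, adjusted p = 0.0967) and passed as higher without control 3 (0.0299). pes and bop1, partners in a complex of large-subunit maturation, were both lower without a call: pes had 34.6, 29.1 and 32.7 CPM in leachate and 40.1, 38.3 and 34.5 CPM in control (log2 -0.23, adjusted p = 0.198), and bop1 had 7.93, 7.31 and 7.51 CPM in leachate and 8.95, 10.1 and 8.15 CPM in control (log2 -0.26, adjusted p = 0.235). The remaining 8 had adjusted p-values from 0.100 (nol12) to 0.981 (rrp15).

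Late small-subunit assembly had the lowest median of the role groups (log2 -0.41), and 2 of its 4 members fell (50% called, beside 15.2% of all tested genes). tsr2, which in yeast delivers a ribosomal protein of the small subunit, had 16.2, 17.4 and 16.0 CPM in leachate and 25.8, 22.3 and 26.1 CPM in control. It fell 1.49-fold (log2 -0.58 ± 0.11 SE, adjusted p = 0.00601, edgeR), with no overlap and with a call under all 18 alternatives. rrp12, an export factor of both subunits in yeast, had 99.5, 84.0 and 82.2 CPM in leachate and 127, 124 and 125 CPM in control. The controls lay close together, all above the leachate pools, and rrp12 fell 1.41-fold (log2 -0.50 ± 0.12 SE, adjusted p = 0.0162). rrp12 was not called without leachate 2 (0.0961), leachate 3 (0.0953) or control 1 (0.0731), and with library totals (0.108). tsr3, an RNA-modifying enzyme, was below every control in each leachate pool without a call (log2 -0.32, adjusted p = 0.147). The GTPase-like tsr1 had 25.4, 16.2 and 19.1 CPM in leachate and 19.7, 24.3 and 19.2 CPM in control, and its groups overlapped (log2 -0.06, adjusted p = 0.856).

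The other nucleolar proteins, a mixed group of chaperones, GTPases and a transcription coregulator, held 1 call among 6, in the GTPase gnl3l. This was 16.7%, beside 15.2% of all tested genes and 18.1% of those at least as abundant. gnl3l had 31.2, 28.8 and 29.1 CPM in leachate and 41.0, 42.4 and 38.9 CPM in control, and fell 1.37-fold (log2 -0.46 ± 0.10 SE, adjusted p = 0.0118, edgeR). The call was lost without leachate 2 (0.0714), leachate 3 (0.0616) or control 1 (0.0544) and with library totals (0.127). Its near relative gnl3, or nucleostemin, a GTPase of stem and dividing cells, had 44.0, 37.6 and 43.4 CPM in leachate and 31.5, 34.8 and 35.8 CPM in control, higher in every leachate pool but not called (log2 0.29, adjusted p = 0.0973). The ratio of gnl3 to gnl3l was 1.41, 1.31 and 1.49 in leachate pools and 0.769, 0.819 and 0.920 in controls, without overlap. It was chosen after its values were seen and has no test.

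The histone chaperone and nucleolar organizer ncl, the most abundant of these genes, had 220, 189 and 210 CPM in leachate and 267, 219 and 278 CPM in control. Leachate 1 stood just above control 2, and ncl was not called (log2 -0.30, adjusted p = 0.173) but passed without control 2 (0.0495). The transcription coregulator mybbp1a was lower in each leachate pool, at 40.6, 36.5 and 32.1 CPM, than in any control, at 44.8, 56.8 and 40.8 CPM (log2 -0.38, adjusted p = 0.0915). The nucleophosmin copies differed in level: npm1a had 90.0, 88.1 and 87.1 CPM in leachate and 93.9, 73.5 and 101 CPM in control (log2 -0.02, 95% interval -0.30 to 0.27), and npm1b had 11.4, 12.3 and 12.2 CPM in leachate and 10.0, 10.1 and 9.62 CPM in control (log2 0.27, adjusted p = 0.146). The ratio of npm1b to npm1a was 0.127, 0.140 and 0.140 in leachate pools and 0.107, 0.138 and 0.0957 in controls, and was not tested. Control 2 lay within the leachate range, and among the ratios given here this alone overlapped between groups. Such paralogs can share reads, so their separate values are uncertain.

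The nol4l genes, taken by name alone, gave 0 calls, none with an unadjusted p under 0.05, and DESeq2 and limma-voom also called 0. nol4lb had 21.3, 19.8 and 16.6 CPM in leachate and 17.4, 16.0 and 15.5 CPM in control (log2 0.24, adjusted p = 0.233). nol4la was the gene of lowest TPM in the set, at 0.881 in control (log2 0.13, adjusted p = 0.712).

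**Figure D3:**
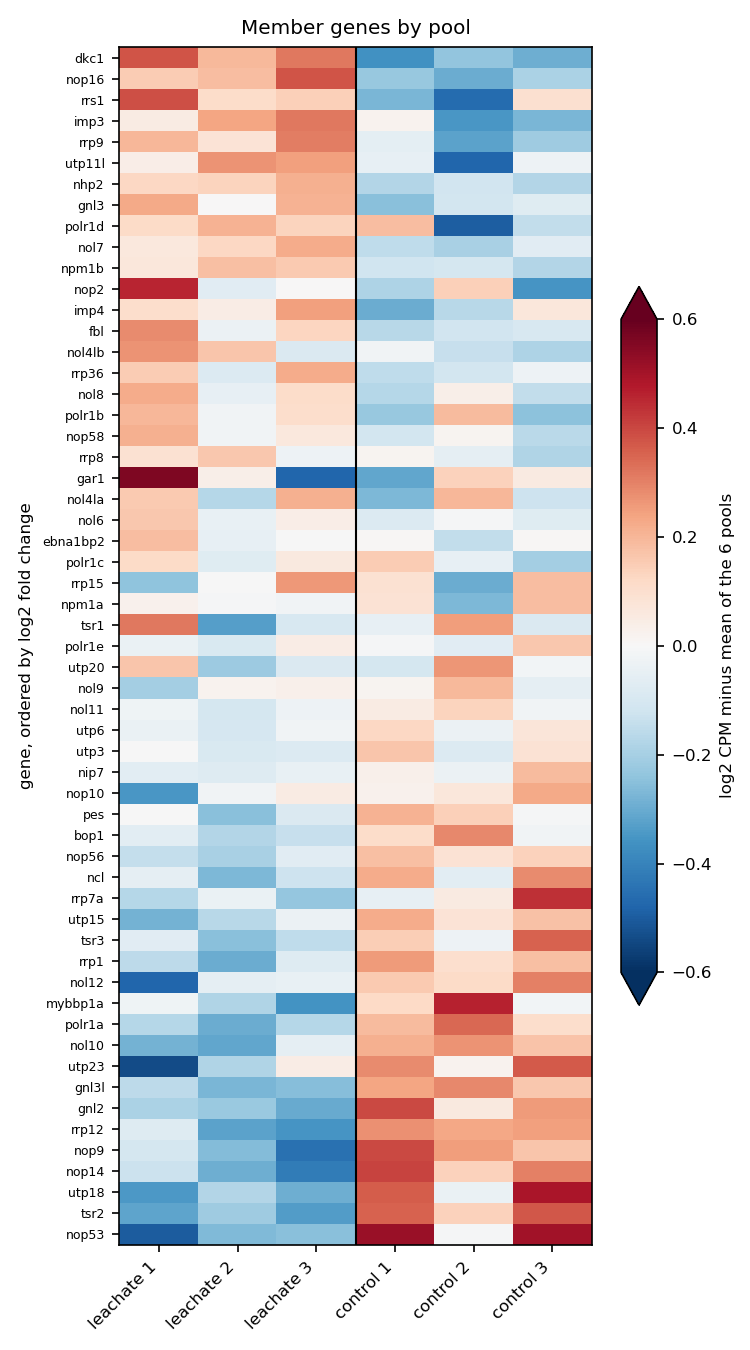
Deviation of each of the 57 genes in each pool from its mean over the 6 pools, as log2 CPM with red above and blue below the mean and genes ordered by log2 fold change; leachate pools are left of the line and controls right of it. The top and bottom rows split by group, the middle rows vary by pool, and control 2 (295 CPM against 426 and 421 CPM in controls 1 and 3) is near the mean in the bottom row, nop53.

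On the deposited TPM, 35 of the 57 genes were higher and 22 lower in leachate, and the sign matched that of the count fit in 48 of the 57, all 12 called genes included. In controls the set spanned 0.881 TPM (nol4la) to 294.5 TPM (nop53), with a median of 11.5. The 9 genes that fell had a median control level of 24.5 TPM, the 3 that rose 11.4 TPM and the 45 that were not called 11.3 TPM, given as a description. Mean TPM was 205 in leachate and 295 in control for nop53, 19.5 and 11.4 for dkc1, 27.8 and 34.6 for rrp12, and 26.6 and 33.0 for gnl2. The loci of gnl2 and rrp9 overlap dnali1 (log2 0.03) and grm2b (log2 0.14), neither of which was called.

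Factors of the same steps outside the 57 genes were counted from lists of known pathway members. Of 116 tested genes (132 listed) for RNA polymerase I initiation, the small subunit, the large subunit, late large-subunit maturation and export, snoRNP assembly and core subunits under other symbols, 6 rose and 31 fell, and 86 lay below control (median log2 -0.19). Called genes were 31.9%, beside 15.2% of all tested genes and 18.1% of those at least as abundant as the least abundant of the 57. Lower calls numbered between 9 (without control 1) and 33 (without control 2) with 1 pool left out: 20, 11 and 16 without leachate 1, 2 and 3, and 19 without control 3. Without control 2 and leachate 1 together they numbered 39. With library totals 8 rose and 9 fell.

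Among 41 other small-subunit factors 0 rose and 11 fell (26.8% called, beside 15.2% of all tested genes, median -0.27). Lower calls in this list were 8, 4 and 5 without leachate 1, 2 and 3, and 3, 15 and 7 without control 1, 2 and 3; with library totals there were 2. The most significant was rcl1, the endonuclease-like factor of the processome, with 26.9, 32.0 and 30.4 CPM in leachate and 50.9, 51.5 and 56.3 CPM in control (log2 -0.83 ± 0.11 SE, adjusted p = 6.92e-04, edgeR). Next was the processome scaffold wdr46, at 19.7 ± 1.28 CPM in leachate and 30.4 ± 1.13 CPM in control (SD, n = 3 each; log2 -0.63, adjusted p = 0.00284 in edgeR). Both kept their calls with any 1 pool left out.

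Among 45 other large-subunit factors 1 rose and 13 fell (31.1% called, beside 15.2% of all tested genes, median -0.16). Lower calls were 7, 4 and 6 without leachate 1, 2 and 3, and 3, 12 and 7 without control 1, 2 and 3, and 4 with library totals. sdad1 had 71.2, 77.1 and 80.3 CPM in leachate and 152, 116 and 154 CPM in control (log2 -0.88, adjusted p = 0.00161, edgeR). The large-subunit factor znf622 was at 32.8 ± 1.25 CPM in leachate and 51.9 ± 2.51 CPM in control (SD, n = 3 each; log2 -0.66, adjusted p = 0.00162 in edgeR). The gene that rose was nifk, a nucleolar partner of the proliferation marker Ki-67, at 30.7 ± 0.889 CPM in leachate and 22.6 ± 2.87 CPM in control (log2 0.44, adjusted p = 0.0276 in edgeR). nifk was not called without leachate 1 (0.0624), leachate 2 (0.0714), leachate 3 (0.0848) or control 1 (0.104).

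Late large-subunit maturation and export gave 2 higher and 5 lower calls among 9 (77.8%, beside 15.2% of all tested genes). The higher ones were the copies of exportin 1, which carries subunits through the nuclear pore: xpo1a had 40.7, 30.1 and 30.9 CPM in leachate and 21.3, 22.3 and 19.1 CPM in control (log2 0.70 ± 0.14 SE, adjusted p = 0.00586, edgeR), and xpo1b was at 58.8 ± 7.18 CPM in leachate and 39.5 ± 4.34 CPM in control (log2 0.58, adjusted p = 0.0116 in edgeR). xpo1b was not called without control 1 (0.0627). Reads of such near-identical copies can be split, so their separate values are uncertain. Among those that fell, znf593 was at 29.1 ± 5.20 CPM in leachate and 44.6 ± 3.23 CPM in control (log2 -0.62, adjusted p = 0.0121 in edgeR), and spata5 at 4.45 ± 0.698 CPM in leachate and 7.55 ± 1.02 CPM in control (log2 -0.76, adjusted p = 0.0135 in edgeR). spata5 was not called without leachate 2 (0.0650) or control 1 (0.0652). Lower calls in the list were 1 without leachate 2, 2 without control 1 and 2 with library totals; they were 3 without leachate 1, leachate 3 or control 3.

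snoRNP assembly factors gave 2 higher and 2 lower calls among 11 (36.4%, beside 15.2% of all tested genes). The ATPases ruvbl2 and ruvbl1, which act together in building box C/D particles and in chromatin remodelling, both rose. ruvbl2 had 22.9, 19.1 and 17.6 CPM in leachate and 11.0, 10.4 and 12.4 CPM in control (log2 0.82 ± 0.14 SE, adjusted p = 0.00265, edgeR), and ruvbl1 was at 22.3 ± 1.54 CPM in leachate and 15.3 ± 0.530 CPM in control (log2 0.55, adjusted p = 0.00722 in edgeR). shq1, the assembly chaperone of dkc1, fell to 12.6 ± 1.07 CPM in leachate, against 20.0 ± 2.54 CPM in control (log2 -0.66, adjusted p = 0.00637 in edgeR). znhit6, a box C/D assembly factor, fell to 16.6 ± 0.729 CPM in leachate, against 23.7 ± 1.33 CPM in control (log2 -0.51, adjusted p = 0.00922 in edgeR), and was not called without control 1 (0.0538) or with library totals (0.0712). The other 3 calls held with any 1 pool left out.

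Of 4 subunits of the same complexes that carry other symbols, 1 was called (25%, beside 15.2% of all tested genes). This list was made after the table's symbols were seen. The called gene, snu13a, rose: this box C/D core protein had 11.1, 16.0 and 15.0 CPM in leachate and 7.58, 8.25 and 9.26 CPM in control (log2 0.74 ± 0.16 SE, adjusted p = 0.00970, edgeR, and 0.0546 without control 1). Its copy snu13b was not called (log2 0.37, adjusted p = 0.0526), nor were the RNA polymerase I subunits znrd1 (0.61, adjusted p = 0.0805) and cd3eap (-0.28, 0.321). Among the 5 subunits shared between polymerases 1 was called (20%, beside 15.2% of all tested genes). It was polr2h, which rose, with 4.64, 4.31 and 3.97 CPM in leachate and 2.06, 2.07 and 3.03 CPM in control (log2 0.85, adjusted p = 0.0187, edgeR). That call was lost without leachate 1 (0.0552), leachate 2 (0.0599) or control 1 (0.0832). RNA polymerase III makes the transfer RNAs and the 5S ribosomal RNA, and 9 of its 10 tested subunits were lower in leachate with a median of -0.35. Of the 10, 1 was called (10%, beside 15.2% of all tested genes). This subunit, polr3e, had 34.6, 35.4 and 39.2 CPM in leachate and 55.9, 49.3 and 59.0 CPM in control (log2 -0.59 ± 0.11 SE, adjusted p = 0.00541, edgeR). The list held 2 lower calls without leachate 1 or leachate 3.

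**Figure D4:**
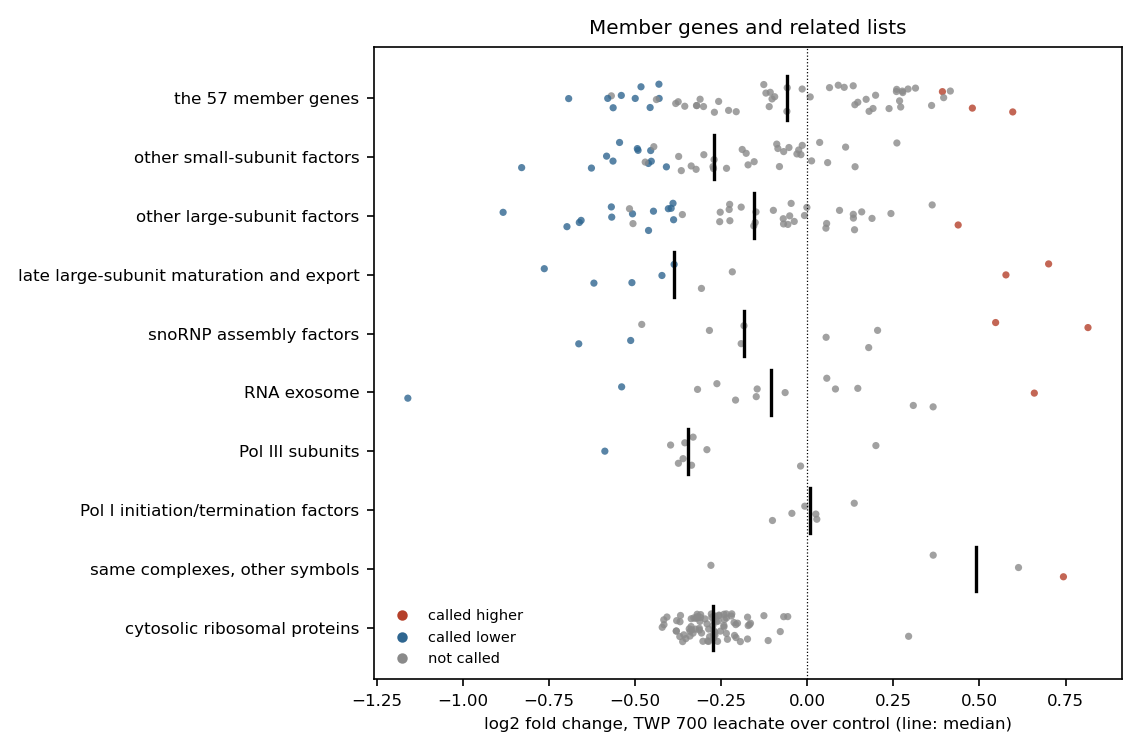
Log2 fold change (leachate over control) of each gene in the 57-gene set and in 9 related lists, 1 point a gene with the list median as a line; genes called higher are red, called lower blue and the rest grey. The medians lie at -0.06 for the set, -0.27 for other small-subunit factors, -0.16 for other large-subunit factors and -0.27 for cytosolic ribosomal proteins, of which none is called.

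The RNA exosome, which trims the precursor ends, gave 1 higher and 2 lower calls among 14 (21.4%, beside 15.2% of all tested genes). exosc1 fell the most, with 10.6, 9.65 and 8.46 CPM in leachate and 19.5, 27.5 and 17.4 CPM in control (log2 -1.16 ± 0.17 SE, adjusted p = 0.00152, edgeR). exosc9 rose to 6.74 ± 0.226 CPM in leachate, against 4.27 ± 0.222 CPM in control (SD, n = 3 each; log2 0.66, adjusted p = 0.0121 in edgeR), and was not called without control 1 (0.0580). exosc3 fell to 26.5 ± 4.97 CPM in leachate, against 38.5 ± 6.21 CPM in control (log2 -0.54, adjusted p = 0.0421 in edgeR). exosc3 was not called without leachate 1 (0.102), leachate 2 (0.0813), leachate 3 (0.0614), control 1 (0.0762) or control 3 (0.124).

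Of the finished ribosome's own proteins, 82 of 83 were lower in leachate (median log2 -0.27), beside 11948 of all 23761 tested genes. In edgeR 0 were called, beside 15.2% of all tested genes. An unadjusted p under 0.05 in edgeR was found for 11 of the 83, beside 7070 of the 23761. DESeq2 called 3 of the 83 lower, beside 2089 of the 23761, and limma-voom 0, beside 1712. The shares called and the share with p under 0.05 were thus smaller among the 83 than over all tested genes. The most abundant, rplp0, had 4300, 7026 and 7538 CPM in leachate and 6821, 7032 and 8682 CPM in control (log2 -0.26, adjusted p = 0.512, edgeR). For rplp0, leachate 1 alone lay below all the controls. Of the 83, 36 lay below and 1 above every control in each leachate pool (44.6% not overlapping, beside 35.1% of all tested genes). Their summed level was 98679, 133534 and 130247 CPM in leachate 1 to 3 and 135488, 134897 and 164269 CPM in control 1 to 3. The median log2 fold change of the 83 was -0.14 with library totals and between -0.35 and -0.16 with 1 pool left out.

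The Myc proteins drive many of these genes in vertebrates, and the Mxd proteins oppose them. Of 14 genes in the Myc network 2 were called (14.3%, beside 15.2% of all tested genes), and the list median was log2 -0.06. mxd1 rose to 44.9 ± 3.83 CPM in leachate, against 32.4 ± 1.40 CPM in control (SD, n = 3 each, log2 0.47, adjusted p = 0.0139, edgeR). It was not called without leachate 3 (0.0706). mxd3 fell to 11.6 ± 1.14 CPM in leachate, against 17.8 ± 0.660 CPM in control (log2 -0.61, adjusted p = 0.00639 in edgeR). Lower calls in this list were 4 without control 2 and 2 without control 3. Among 10 tested genes of p53 and nucleolar stress, 1 rose and 2 fell (30% called, beside 15.2% of all tested genes). The cell-cycle inhibitor cdkn1a had 15.2, 11.6 and 9.54 CPM in leachate and 3.49, 2.01 and 5.67 CPM in control (log2 1.70 ± 0.35 SE, adjusted p = 0.0181, edgeR), and its call was lost without leachate 1 (0.0518), leachate 2 (0.0542) or control 1 (0.0805). sesn1 fell to 433 ± 43.2 CPM in leachate, against 847 ± 70.3 CPM in control (log2 -0.97, adjusted p = 0.00175 in edgeR). The apoptosis gene bbc3 fell to 11.0 ± 1.31 CPM in leachate, against 16.5 ± 3.61 CPM in control (log2 -0.58, adjusted p = 0.0346 in edgeR), a call lost without leachate 1 (0.102), leachate 2 (0.118), leachate 3 (0.0521) or control 1 (0.154).

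The summed level of proliferating cell markers was higher in every leachate pool than in any control. Summed over 17 genes of the cell cycle and DNA replication, it came to 487, 351 and 356 CPM in leachate 1 to 3 and 154, 211 and 168 CPM in control 1 to 3. Of the 17, 10 were called higher (9 to 14 with 1 pool left out), beside 7.87% of all tested genes, and all 17 were higher on average. In 12 of the 17 each leachate pool lay above every control, beside 17.9% of all tested genes. Of the 57 genes, 11 lay above and 19 below every control in each leachate pool, beside 17.9% and 17.1% of all tested genes. The part of proliferating cell markers in the changes of the 57 genes was not tested. The summed level of the 7 snoRNP core proteins was 273, 253 and 273 CPM in leachate and 267, 266 and 267 CPM in control.

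**Figure D5:**
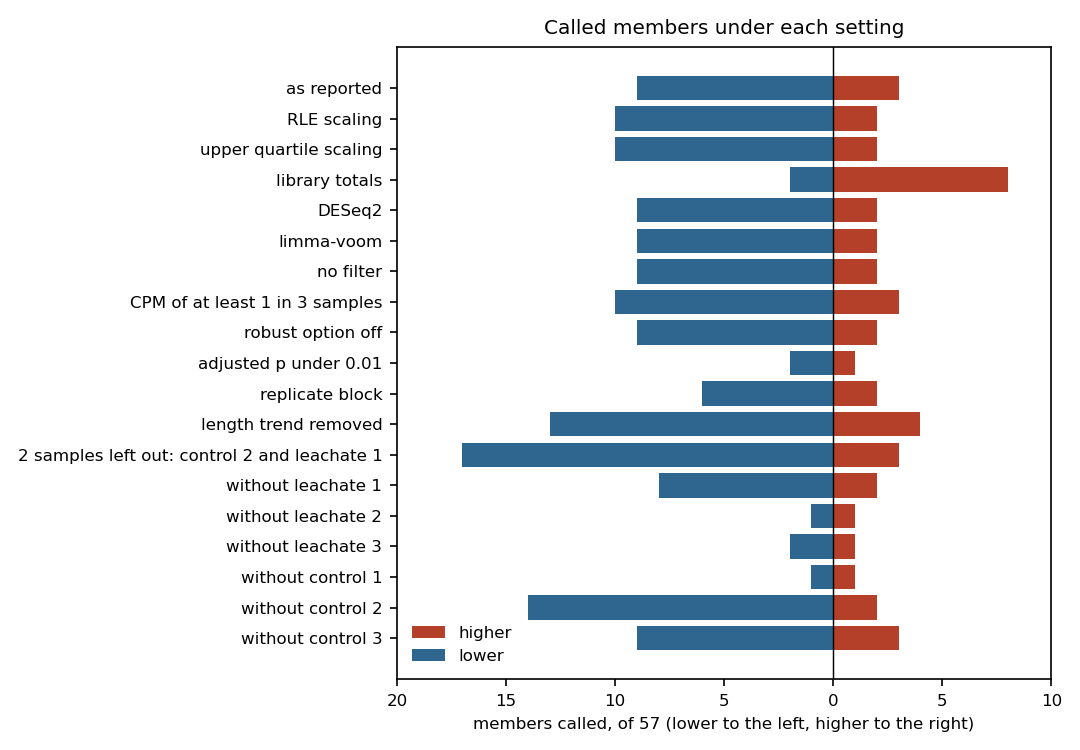
Number of the 57 genes called higher (red, to the right) and lower (blue, to the left) as reported and under each of 18 alternatives. As reported 3 rise and 9 fall; with library totals the split turns to 8 and 2, and leaving out 1 pool gives between 1 and 14 lower calls.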

How the data were processed

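Whole-larva RNA was sequenced as stranded libraries after removal of ribosomal RNA, per the labels' protocols. The authors deposited read counts, TPM and FPKM per gene and sample, per the file headers. The submitters' processing notes name, without roles, HISAT2, StringTie 2.1.3b, DESeq2 and the GRCz11 assembly; how reads were counted per gene, with or without strand, was not given in the sources used here. The table lists 24826 genes, each with at least 1 count in every sample, so genes at 0 in any sample were not seen. Deposited FPKM were not tested. Other leachates of the study were not analysed here.

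The 23761 genes that passed the expression filter were fitted in edgeR 4.0.16 (R 4.3.3) on deposited counts with TMM factors, a robust quasi-likelihood F test for the leachate term and Benjamini-Hochberg adjusted p-values. SE is the absolute log2 fold change divided by the square root of F, and intervals use the fit's degrees of freedom. DESeq2 1.42.0 and limma-voom (limma 3.58.1) were alternatives. The code was tested on simulated data.

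The genes, role groups and lists were chosen with earlier results of these data known. By rule, genes given in every sample were the called members and the most abundant of each role group. Other members are named to complete a role. Some of these, such as polr1b, nhp2 and fbl, were also given in every sample, outside that rule and with their values known. From related lists up to 2 called genes per direction with the smallest p, or the most abundant, were named; the uncalled subunits under other symbols were chosen after their values were seen. All 57 genes matched a RefSeq gene table by gene identifier. That table is of another assembly than the deposited data, and 19 of the 57 overlap another gene in it, with strand ignored. The locus overlaps given above are from it. Libraries of a group differed beyond counting noise (chi-square per degree of freedom 8.58 to 90.0), so none repeated another up to such noise. Leachate 2 and leachate 3 were the most alike (8.58), and leachate 1 stood at 57.9 and 57.4 from them. Separate libraries made from the same RNA would not be found in this way. No promoter or protein sequence was used here.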

Additional observations from a re-analysis of the deposited data

How the results depend on the processing

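With 3 pools a group most calls changed with the pools or settings used. Of 12 called members, 2 (dkc1 and tsr2) kept the call under all 18 alternatives and 10 lost it in at least 1. A further 13 uncalled members gained a call in at least 1. Leaving out a pool also lowers the number of replicates, and its effect was not tested apart from that of the pool itself. The 18 include the stricter threshold of an adjusted p under 0.01. The sign was the same under all 18 in 44 of the 57. The count that rose was 3 as reported, 8 with library totals, 1 at an adjusted p under 0.01, and 1 to 3 with 1 pool left out. The count that fell was 9 as reported, 2 with library totals, 2 at an adjusted p under 0.01, 17 without control 2 and leachate 1 together, and 1 to 14 with 1 pool left out. Counts were 4 and 13 with the gene-length trend removed. Over all tested genes 15.2% were called as reported, 7.91% to 17.1% with 1 pool left out and 22.1% without control 2 and leachate 1 together. With library totals 80% of called members were higher, against 25% as reported, and over all tested genes 76.4% against 51.9%. The trimmed-mean factors left out there were 1.109, 1.020 and 1.016 in leachate 1 to 3 and 0.994, 0.992 and 0.882 in control 1 to 3. Without them the median log2 fold change of all tested genes moved from -0.0026 to 0.131. Why the factors differed between the groups was not tested.

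Signs turned only in members that were not called. With library totals log2 fold changes became 0.078 for polr1e, 0.015 for utp3, 0.023 for utp6, 0.023 for nol11, 0.042 for utp20, 0.011 for nip7, 0.023 for nol9, 0.080 for tsr1 and 0.125 for npm1a. Without control 2 and leachate 1 together they became -0.068 for gar1, 0.048 for nol9, -0.0030 for rrp15, -0.031 for ebna1bp2 and -0.044 for ubtf, and with limma-voom -0.0043 for rrp15. With 1 pool left out the ranges were -0.106 to 0.0063 for polr1e, -0.021 to 0.165 for polr1c, -0.208 to 0.021 for utp20, -0.164 to 0.357 for gar1, -0.127 to 0.125 for rrp15, -0.256 to 0.089 for tsr1, -0.138 to 0.075 for npm1a and -0.022 to 0.083 for ubtf.

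Deviations from the group mean correlated at -0.0465, -0.101 and 0.0307 between same-numbered pools, and at -0.102 to 0.118 between pools of unlike number. With 3 pools a group this cannot show whether same-numbered pools had anything in common, and the numbers are used here only as names. With the replicate number as a block 2 members rose and 6 fell, and 1317 genes rose and 1248 fell over all tested genes.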
